A study of Mus musculus with 20 samples.

Results

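The genes described here encode collagens, laminins and the proteins that build, cut and protect the extracellular matrix of the mouse hippocampus. They were chosen by symbol (Col, Lam, Adamts, Mmp and Timp genes, with Serpinh1, Mgp, Fn1 and Tnxb) and by a level of at least 0.5 FPKM (fragments scaled to transcript length and library size) in at least 5 libraries. Of 13256 genes, 56 matched by symbol and 53 of these reached the level. Just inside the rule, Col12a1 and Col8a1 reached 0.5 FPKM in 5 libraries each. Just outside it, Mmp28 reached it in 4 libraries, and Col3a1 and Col18a1 in 3 each. The 3 libraries of Col3a1 and the 3 of Col18a1 were all from female KO mice, so the level rule left out genes that were high in that group. The 53 comprise 21 collagen genes, 6 laminin chains, 10 ADAMTS and 2 ADAMTS-like genes, 6 matrix metalloproteinases, 3 inhibitors of metalloproteinases, 4 single matrix genes, and Col4a3bp. The last matched by its letters only, since it encodes a ceramide transfer protein and no collagen.

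RNA from hippocampus was sequenced in 4 groups of 5 libraries: female C57, female KO, male C57 and male KO. C57 mice are labelled WT. The KO label refers to Fmr1, the gene of the RNA-binding protein FMRP that is silenced in fragile X syndrome. The genotype field of the KO mice reads "Fmr1 knockdown" where their titles read KO. For the KO allele and the age of the mice, nothing is stated in the labels used here. No label says that the 5 libraries of a group came from separate animals, so p-values measure the spread between these libraries, which may be technical. Fmr1 was between 2.90 and 3.72 FPKM in the 10 KO libraries and between 9.85 and 11.8 FPKM in the 10 C57 libraries. The 13 markers of hippocampal neurons were above 0 in all 20 libraries. Depth is unknown, because FPKM are not counts.

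Some libraries stood apart in genes of neighbouring tissue. Ttr, the transthyretin gene that marks choroid plexus epithelium, stood at 583 to 1461 FPKM in 4 libraries (female C57 4, female KO 4, female KO 5 and male KO 2) and at 8.37 to 169 FPKM in the other 16. Prl, the pituitary hormone prolactin, stood at 4.63, 42.2 and 22.1 FPKM in female KO 2, 3 and 4, and was at 0 in 12 of the 20 libraries. Leaving out both sets keeps only 1 female KO library. The calls below are given with and without these libraries.

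Collagens are triple-helical proteins that form fibrils, sheets or membrane-bound rods. Laminins are cross-shaped trimers of an alpha, a beta and a gamma chain, which join type IV collagen in the basement membrane. In brain, these sheets surround vessels and line the surface under the meninges, fibrillar collagen is made mainly by fibroblasts of the meninges and vessel walls, and the space between neurons holds little of it. Metalloproteinases of the MMP and ADAMTS families cut the matrix, and TIMP proteins inhibit them.

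Most of the genes were low. The median gene level over the 20 libraries was 1.59 FPKM for the 53 and 5.61 for all 13174 genes tested, and 23 of the 53 averaged under 1 FPKM, 22 between 1 and 5, and 8 above 5. The highest 3 were Timp2, Mmp17 and Timp3: Timp2 averaged 70.9 FPKM, Mmp17 22.2 and Timp3 15.8. Timp2 and Timp3 encode inhibitors of metalloproteinases, and Mmp17 a membrane-anchored metalloproteinase. Mgp, which encodes matrix Gla protein, an inhibitor of calcification in vessel walls, averaged 11.0. The collagen with the highest mean was Col4a2 at 6.13 FPKM, followed by Col4a1 at 4.95 and Col6a1 at 4.21. Col4a1 and Col4a2 encode the chains of the main type IV collagen and start 21 bases apart on opposite strands of chromosome 8. Fibrillar genes were lower, with Col11a2 at 2.32, Col1a1 at 1.18 and Col1a2 at 1.03 FPKM. Laminin chains differed in level: Lamc1 averaged 4.18, Lamb1 3.44 and Lamb2 3.15 FPKM, against 0.963 for Lama2, 0.601 for Lama5 and 0.488 for Lamc3. Levels are compared here on the FPKM scale, which is per length.

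**Figure D1:**
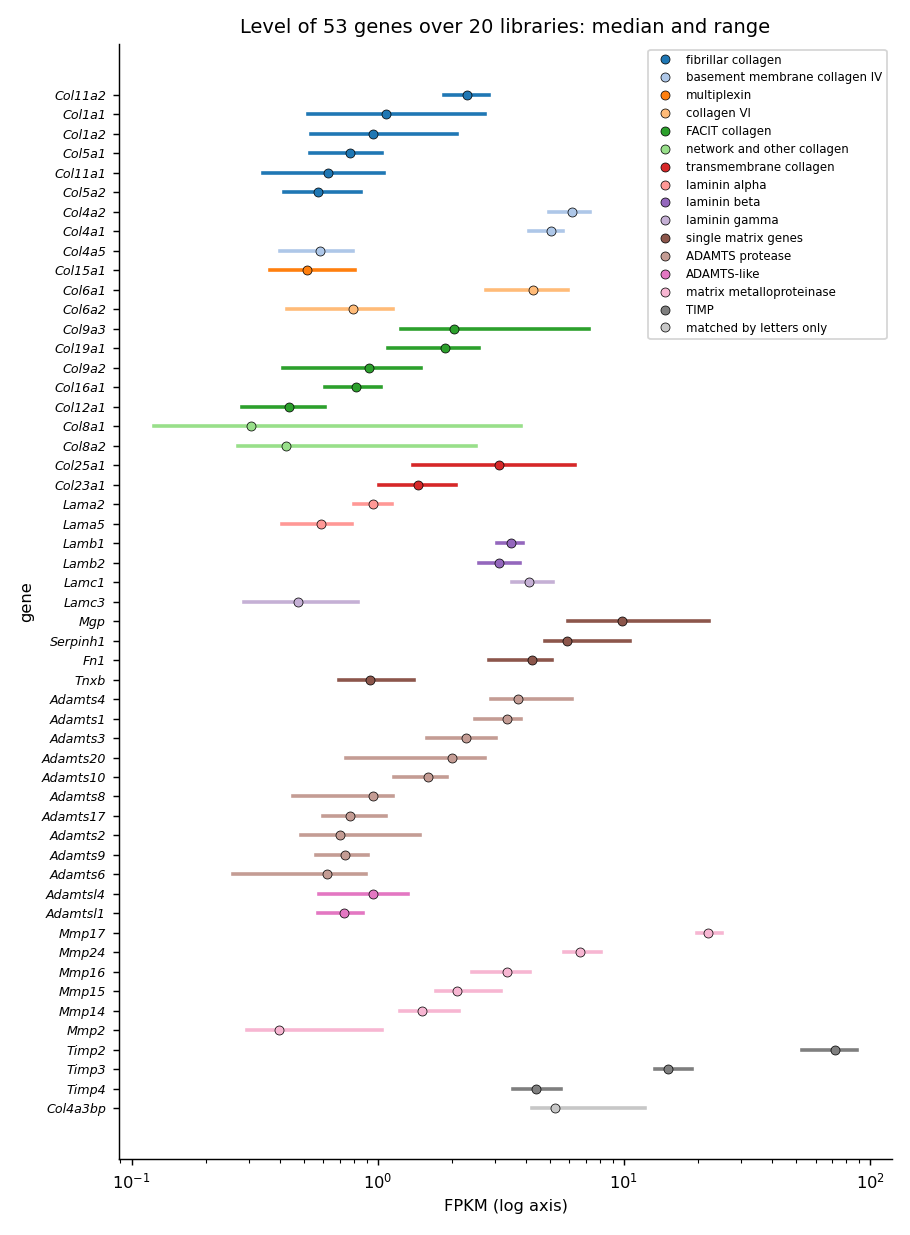
Level of each of the 53 genes in FPKM on a log axis, with the median over 20 libraries as a point and the lowest to highest library as a line, coloured by role. Timp2 and Mmp17 lie at the right, and Col8a1, from 0.123 to 3.83 FPKM, has the longest line.

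Differences are given on the scale of log2(FPKM + 1), from limma fitted over all 20 libraries. The threshold was an adjusted p of 0.05 (Benjamini-Hochberg over all 13174 tested genes), and "higher" or "lower" without that remark describes values only. Because the tissue is bulk, fewer cells of a type and less RNA per cell cannot be told apart.

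Between female KO and female C57, 2 of 53 genes (3.77%) passed and both were higher, against 3.32% of all genes (1.80% higher and 1.53% lower). The share among these genes is near that of all genes. At an unadjusted p under 0.05, 13 of the 53 differed, 24.5% against 19.5% of all genes. Between male KO and male C57, 0 of 53 passed, 0.0455% of all genes did, and 7 of the 53 stood at an unadjusted p under 0.05, 13.2% against 8.69%. For the mean of both KO effects, 4 of 53 (7.55%) passed, 3 higher and 1 lower, against 3.22% of all genes (1.38% higher and 1.84% lower). No gene of the 53 passed in the test of whether the KO effect differs between the sexes (0 of 53 in limma, where 0.0455% of all genes passed, with 6 at an unadjusted p under 0.05, against 10.0% of all genes). In both sexes 24 of the 53 were above 0 and 6 below, 8 were above 0 in females only and 15 in males only. The same counts were not made over all genes, so these are not read as an excess. The 2 comparisons have separate libraries.

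Col1a1 (ENSMUSG00000001506.10, mm10, chromosome 11, 94936224 to 94953042, plus strand) encodes the alpha 1 chain of type I collagen, the main fibrillar collagen. In female C57 it was at 0.767, 1.15, 1.19, 1.17 and 0.978 FPKM, and in female KO at 1.45, 2.24, 1.72, 2.72 and 1.85. In male C57 it was at 0.518, 0.639, 0.585, 0.689 and 0.637 FPKM, and in male KO at 1.21, 1.02, 1.13, 0.932 and 1.03. Every KO library lay above every C57 library of its sex. The group means were 1.05 ± 0.179 and 1.99 ± 0.495 FPKM in females, and 0.614 ± 0.0646 and 1.06 ± 0.107 in males (SD, n = 5 each), a ratio of 1.90 in females and 1.73 in males. On the log2 scale the difference was 0.54 in females (SE 0.09, limma adjusted p = 0.0051), 0.35 in males (SE 0.09, adjusted p = 0.16) and 0.45 for the mean (adjusted p = 0.001). Groups that do not overlap, with KO above, were found for 1 of the 53 genes in females (3.17% of all genes) and for 4 in males (Col1a1, Col19a1, Mmp16 and Tnxb, against 0.607% of all genes). With KO below, they were found for 3 in females (Adamts3, Col11a1 and Lama2, against 2.82%) and 0 in males (1.40%). Without the 4 libraries of high Ttr the female difference in Col1a1 was 0.47 (adjusted p = 0.035), without the 3 of high Prl 0.37 (adjusted p = 0.12), and without both 0.28 (adjusted p = 0.58). The mean difference was 0.41 without the Ttr set (adjusted p = 0.0043), 0.36 without the Prl set (adjusted p = 0.0071) and 0.32 without both (adjusted p = 0.089). Fitted on the female groups alone, the female difference had an adjusted p of 0.051, and with a pseudocount of 0.1 it was 0.85.

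Col1a2 encodes the partner chain of type I collagen. In females it was at 0.669, 1.32, 0.995, 1.30 and 0.590 FPKM in C57 and at 1.09, 2.0, 1.26, 2.10 and 1.39 in KO. In males it was at 0.536, 0.834, 0.614, 0.697 and 0.651 in C57 and at 0.999, 1.05, 0.881, 0.917 and 0.770 in KO. The groups overlapped in both sexes, and the mean difference of 0.29 had an adjusted p of 0.051. Col5a2, a chain of type V collagen, differed by 0.12 (adjusted p = 0.056).

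**Figure D2:**
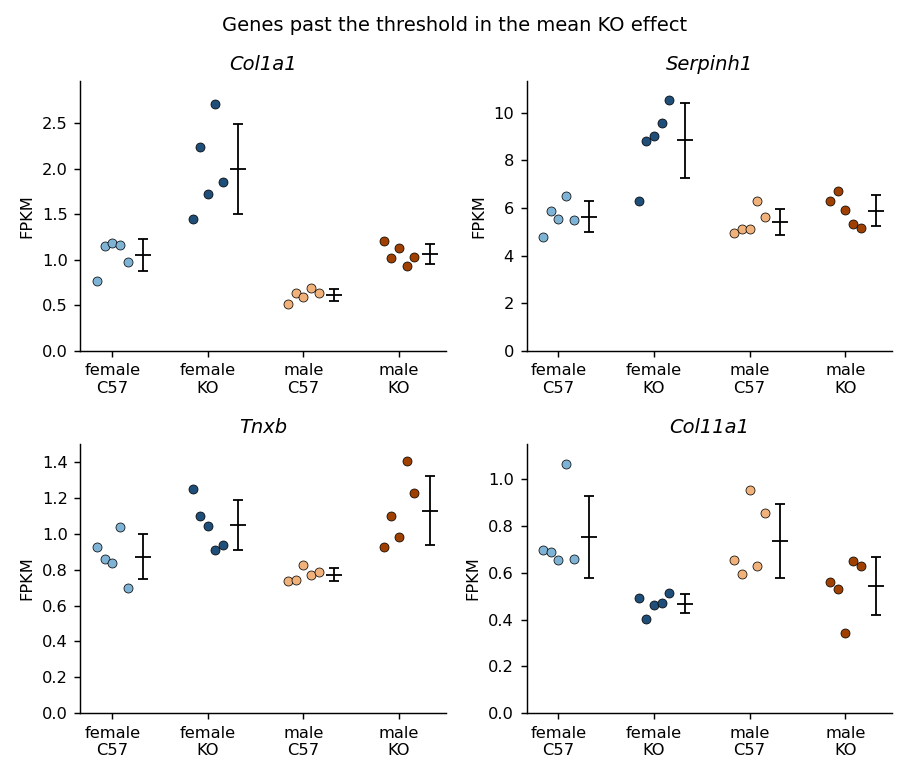
FPKM of the 4 genes that passed in the mean of both KO effects, in the 5 libraries of each group (points) with the mean and SD (bar). In Col1a1 the KO points of each sex lie above all its C57 points, and in Serpinh1 only the female KO group is set apart, with 1 library inside the C57 range.

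Serpinh1 (ENSMUSG00000070436.12, chromosome 7, 99345376 to 99353239, minus strand) encodes HSP47, a chaperone of the endoplasmic reticulum that folds procollagen. Its RefSeq promoter window (GRCm38.p6, chr7:99353240-99353489, minus strand, the 250 bases before the start) is shown because collagen genes and their chaperone are compared here, with the GC box GGGCGG in capitals.
Serpinh1: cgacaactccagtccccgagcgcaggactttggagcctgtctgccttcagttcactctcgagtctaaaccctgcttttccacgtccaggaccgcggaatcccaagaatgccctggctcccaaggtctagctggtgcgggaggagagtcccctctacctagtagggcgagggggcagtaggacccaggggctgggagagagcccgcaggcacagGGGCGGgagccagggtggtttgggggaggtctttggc
In the windows from 250 bases before to 50 after the start, 29 of the 36 genes that have one hold GGGCGG on either strand, against 35.7% of all 32851 windows. The heat shock motif GAANNTTC was in 3 of the 36, against 7.86% of all windows, and these letters are not in the Serpinh1 window. All windows are not limited to the genes tested here, and the 36 genes hold 37 windows, so genes and windows are unlike sets. Matches are descriptions of the letters only.

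Serpinh1 was at 4.78, 5.87, 5.56, 6.53 and 5.48 FPKM in female C57 and at 6.31, 8.80, 9.02, 9.57 and 10.6 in female KO. In male C57 it was at 4.95, 5.11, 5.11, 6.29 and 5.61, and in male KO at 6.28, 6.72, 5.93, 5.33 and 5.18. Female KO 1 was the one KO library below the highest female C57 library, and the male groups overlapped. Serpinh1 rose by 0.56 in females (SE 0.10, adjusted p = 0.011), while the male difference was 0.10 (adjusted p = 0.84) and the mean 0.33 (adjusted p = 0.018). The difference between the sexes, -0.46, did not pass (adjusted p = 0.34). The female difference was 0.48 without the high-Ttr libraries (adjusted p = 0.057), 0.47 without the high-Prl libraries (adjusted p = 0.20) and 0.19 without both (adjusted p = 0.77). The mean difference was 0.27, 0.29 and 0.12 in the same order (adjusted p = 0.076, 0.16 and 0.57). Fitted on the female groups alone, its adjusted p was 0.051.

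Tnxb (ENSMUSG00000033327.16, chromosome 17, 34670535 to 34719815, plus strand) encodes tenascin X, a large glycoprotein of connective tissue. Its promoter window (chr17:34670285-34670534, plus strand), shown as a member without any match to the 4 motifs searched, reads as follows.
Tnxb: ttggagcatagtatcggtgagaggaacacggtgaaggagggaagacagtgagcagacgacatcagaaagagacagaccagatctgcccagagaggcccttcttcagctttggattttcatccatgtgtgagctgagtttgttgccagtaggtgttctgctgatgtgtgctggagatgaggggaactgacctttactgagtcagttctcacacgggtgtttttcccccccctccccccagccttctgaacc
In male C57 it was at 0.737, 0.739, 0.827, 0.769 and 0.784 FPKM, and in male KO at 0.926, 1.10, 0.982, 1.40 and 1.23. In female C57 it was at 0.927, 0.858, 0.837, 1.04 and 0.696 and in female KO at 1.25, 1.10, 1.04, 0.911 and 0.936. The male groups did not overlap and the female groups did. The difference was 0.26 in males (adjusted p = 0.15) and 0.20 for the mean (adjusted p = 0.021), which was 0.24 without the high-Ttr libraries (adjusted p = 0.022), 0.21 without the high-Prl libraries (adjusted p = 0.092) and 0.28 without both (adjusted p = 0.12). With the trend on GC content removed it was 0.15 (adjusted p = 0.054). The 5 female KO libraries had the 5 highest slopes on GC content, 0.0613 to 0.0773 log2 units per 10% GC, against -0.0978 to 0.0308 in the other 15. The slopes bear on all 53 genes, whose median GC content was 55.1%, against 50.2% for the 13095 tested genes with a known GC content.

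Col11a1 (ENSMUSG00000027966.20, chromosome 3, 114030540 to 114220718, plus strand) encodes a chain of type XI collagen, a minor fibrillar type. It is shown with its CCAAT box (read on the reverse strand, ATTGG) and GC boxes in capitals (GRCm38.p6, chr3:114030290-114030539).
Col11a1: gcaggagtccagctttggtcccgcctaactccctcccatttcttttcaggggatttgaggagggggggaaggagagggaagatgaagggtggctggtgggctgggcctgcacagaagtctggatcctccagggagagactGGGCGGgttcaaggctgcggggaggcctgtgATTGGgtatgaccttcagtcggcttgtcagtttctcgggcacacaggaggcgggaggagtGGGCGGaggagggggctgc
It was at 0.697, 0.687, 0.652, 1.06 and 0.656 FPKM in female C57 and at 0.492, 0.403, 0.464, 0.469 and 0.514 in female KO. In males it was at 0.652, 0.593, 0.952, 0.626 and 0.856 in C57 and at 0.561, 0.531, 0.341, 0.652 and 0.628 in KO. The female groups did not overlap and the male groups did. It was the one gene of the 53 that fell in the mean effect, by 0.21 (adjusted p = 0.030). The mean difference was -0.19 without the high-Ttr libraries (adjusted p = 0.11), -0.19 without the high-Prl libraries (adjusted p = 0.19) and -0.17 without both (adjusted p = 0.45), so its size stayed near that in all libraries while the call was lost. It also lost the call without any one of female KO 2, female KO 3, male C57 3, male C57 5 and male KO 3.

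**Figure D3:**
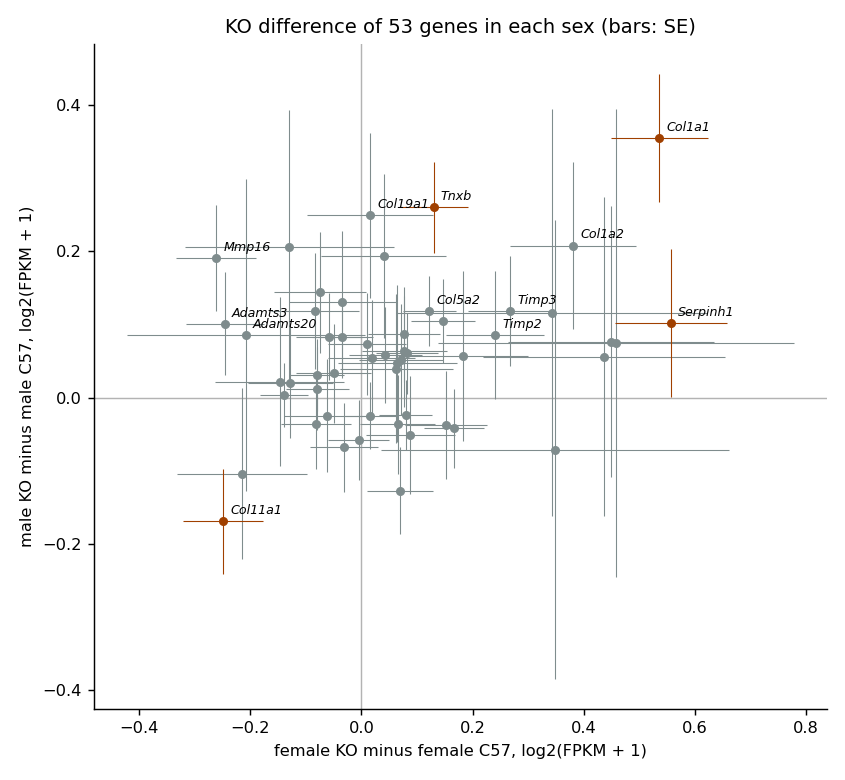
Difference between KO and C57 on the log2(FPKM + 1) scale in females (horizontal) and males (vertical) for 53 genes, with standard errors, and in brown the 4 genes that passed in the mean effect. Col1a1 lies at 0.54 and 0.35, and Col11a1 below 0 on both axes.

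The other fibrillar genes and the sheet-forming collagens showed no difference past the threshold. Col11a2, the partner of Col11a1 and the highest fibrillar gene, was at 2.48, 2.61, 2.3, 2.83 and 2.02 FPKM in female C57 and at 2.09, 2.01, 2.3, 2.11 and 2.23 in female KO. In males Col11a2 was at 1.96, 2.2, 2.36, 2.44 and 2.56 in C57 and at 1.86, 2.48, 2.05, 2.73 and 2.69 in KO, and the groups overlapped in both sexes. Its mean difference was -0.05 (adjusted p = 0.65). Col5a1 differed by -0.05 (adjusted p = 0.59).

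Col4a2 was at 5.45, 5.81, 6.07, 7.26 and 6.18 FPKM in female C57, at 6.85, 6.18, 6.48, 6.02 and 6.96 in female KO, at 4.98, 5.31, 6.17, 5.84 and 6.74 in male C57 and at 6.46, 5.81, 5.17, 6.72 and 6.08 in male KO. All 4 groups overlapped. The 3 type IV genes differed in the mean effect by 0.05 (Col4a1), 0.06 (Col4a2) and 0.08 (Col4a5), with adjusted p of 0.61, 0.59 and 0.36. Without strand information, reads in the shared start region of Col4a1 and Col4a2 cannot be assigned to one of them. Col15a1, a basement membrane collagen of the multiplexin class, was at 0.568, 0.475, 0.703, 0.807 and 0.711 FPKM in female C57 and at 0.602, 0.528, 0.523, 0.611 and 0.539 in female KO. In males it was at 0.458, 0.452, 0.493, 0.372 and 0.478 in C57 and at 0.365, 0.635, 0.430, 0.385 and 0.511 in KO, and it differed by -0.03 in the mean effect (adjusted p = 0.71).

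Type VI collagen forms beaded filaments around cells. Col6a1 was at 4.37, 5.78, 4.77, 5.33 and 5.79 FPKM in female C57, at 4.2, 3.77, 5.91, 4.49 and 4.77 in female KO, at 2.89, 4.34, 3.5, 3.76 and 2.85 in male C57 and at 3.53, 3.01, 2.75, 4.42 and 3.99 in male KO. Female C57 libraries were the highest of the 4 groups by their mean, 5.21 ± 0.629 against 3.47 ± 0.623 in male C57. Within C57 every female library lay above every male one, the nearest being 4.37 and 4.34 FPKM. The share of all genes without overlap between the sexes in C57 was not computed. The KO difference of Col6a1 was -0.06 in the mean effect (adjusted p = 0.73) and that of Col6a2 -0.01 (adjusted p = 0.95).

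The fibril-associated collagens bind the surface of fibrils, and Col25a1 and Col23a1 are anchored in the cell membrane. Col19a1 was at 1.67, 1.78, 1.83, 1.6 and 1.72 FPKM in male C57 and at 2.31, 1.92, 2.01, 2.58 and 2.38 in male KO, with no overlap, and at 1.82, 1.67, 1.1, 2.41 and 2.0 and 2.01, 1.58, 2.2, 2.17 and 1.17 in female C57 and KO. Its male difference was 0.25 (adjusted p = 0.55) and its female difference 0.02 (adjusted p = 0.96). Col16a1 differed by -0.06 in the mean effect (adjusted p = 0.52) and Col9a2 by 0.05 (adjusted p = 0.75). Col25a1 was at 4.04, 3.06, 3.18, 3.51 and 3.38 FPKM in female C57 and at 3.4, 3.12, 2.84, 2.61 and 3.29 in female KO. In males it was at 1.39, 3.3, 2.92, 2.71 and 3.12 in C57 and at 1.77, 2.95, 6.34, 3.13 and 2.79 in KO, where male KO 3 was the highest library, and it differed by 0.04 in the mean effect (adjusted p = 0.91). Col23a1 differed by 0.05 (adjusted p = 0.75).

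Of the 6 laminin chains 0 passed between KO and C57 in limma, where 3.32% of all genes passed in females and 0.0455% in males. At an unadjusted p under 0.05 there were 2 in females and 0 in males, against 19.5% and 8.69% of all genes. Lamc1, the gamma chain shared by most laminins, was at 4.04, 4.09, 4.19, 4.08 and 3.8 FPKM in female C57 and at 3.95, 4.32, 4.81, 4.26 and 4.04 in female KO, and Lamb1 at 3.12, 3.29, 3.7, 3.56 and 3.55 and 3.68, 3.06, 3.13, 3.43 and 3.87. Both pairs of groups overlapped. In males Lamc1 was at 4.15, 4.15, 5.13, 3.83 and 4.1 in C57 and at 4.56, 4.49, 3.75, 4.4 and 3.5 in KO, and Lamb1 at 3.34, 3.71, 3.7, 3.38 and 3.47 and 3.09, 3.52, 3.13, 3.48 and 3.48, again with overlap. Lama2, the alpha chain of muscle and vessel laminins, was at 1.08, 0.948, 0.991, 1.14 and 1.13 in female C57 and at 0.828, 0.940, 0.855, 0.918 and 0.801 in female KO. The female groups of Lama2 did not overlap, the difference was -0.14 (adjusted p = 0.082), and the male difference was 0.00 (adjusted p = 0.99). In males Lama2 was at 0.956, 1.04, 0.948, 0.835 and 1.02 in C57 and at 1.08, 0.989, 0.918, 0.970 and 0.869 in KO. Lamb2 differed by 0.17 in females (adjusted p = 0.095) and by -0.04 in males, Lama5 by 0.08 and 0.06, and Lamc3 by 0.09 and -0.05.

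Fn1 encodes fibronectin, which links cells to collagen. Its group means were 4.25 ± 0.359 and 4.39 ± 0.375 FPKM in female C57 and KO, and 3.69 ± 0.847 and 4.35 ± 0.823 in male C57 and KO (SD, n = 5 each). The differences, 0.04 in females and 0.19 in males, were within this spread (adjusted p = 0.89 and 0.67).

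Among the proteases, 0 of 10 ADAMTS and 0 of 2 ADAMTS-like genes passed between KO and C57 in limma. Of all genes, 3.32% passed in females and 0.0455% in males. At an unadjusted p under 0.05 there were 1 of the 12 in females and 0 in males, against 19.5% and 8.69% of all genes. Adamts4, an aggrecanase that cuts proteoglycans of the lectican family, was at 4.81, 3.49, 3.62, 6.15 and 3.35 FPKM in female C57 and at 2.89, 3.78, 4.11, 3.03 and 3.65 in female KO. It was at 4.79, 3.91, 4.44, 3.79 and 3.44 in male C57 and at 3.85, 4.08, 3.34, 3.64 and 3.62 in male KO, and overlapped in both sexes, with a mean difference of -0.16 (adjusted p = 0.32). Adamts3, which trims procollagen, was at 2.13, 2.38, 2.54, 3.02 and 2.35 in female C57 and at 2.1, 2.1, 1.58, 1.95 and 1.94 in female KO, with every KO library below every C57 library. Its female difference was -0.25 (adjusted p = 0.061) and its male difference 0.10 (adjusted p = 0.74). The difference between the sexes, 0.35, had an adjusted p of 0.29. Adamts1 and Adamts2 differed by -0.04 (adjusted p = 0.73) and 0.12 (adjusted p = 0.47) in the mean effect. Adamtsl4, the higher ADAMTS-like gene, was at 1.04, 0.985, 0.941, 1.33 and 0.579 in female C57 and at 0.917, 0.967, 1.18, 0.996 and 0.873 in female KO, and at 0.825, 0.797, 1.08, 0.866 and 0.801 in male C57 and 1.01, 0.938, 0.755, 1.05 and 0.969 in male KO, a mean difference of 0.04 (adjusted p = 0.77). Adamtsl1 differed by -0.0044 (adjusted p = 0.96).

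Of the 6 metalloproteinases 0 passed between KO and C57 in limma, where 3.32% of all genes passed in females and 0.0455% in males. At an unadjusted p under 0.05 there were 2 in females and 1 in males, against 19.5% and 8.69% of all genes. Mmp16, a membrane-type enzyme, was at 3.62, 3.28, 4.07, 3.84 and 3.01 FPKM in female C57 and at 3.1, 3.43, 3.07, 2.99 and 3.14 in male C57. Its KO difference in females was -0.26 (adjusted p = 0.053). In males, where the groups did not overlap, it was 0.19 (adjusted p = 0.45). The difference between the sexes was 0.45 (adjusted p = 0.20). Mmp24, a membrane-type enzyme of neurons, was at 6.45, 6.45, 6.71, 5.75 and 7.17 in female C57 and at 7.93, 8.1, 6.68, 6.95 and 6.9 in female KO, with a mean difference of 0.13 (adjusted p = 0.10). Mmp14 differed by 0.07 (adjusted p = 0.53) and Mmp2, a secreted gelatinase, by 0.06 (adjusted p = 0.74).

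Timp2 had the highest level of the 53 genes. Timp2 was at 73.5, 77.7, 63.6, 52.7 and 72.6 FPKM in female C57 and at 73.1, 72.3, 83.3, 82.7 and 88.7 in female KO, and at 61.3, 77.1, 59.6, 67.1 and 64.8 and 72.0, 69.7, 71.7, 68.2 and 67.3 in male C57 and KO. The groups overlapped in both sexes and the mean difference was 0.16 (adjusted p = 0.17). Timp3 was at 15.1, 15.1, 15.5, 13.7 and 13.4 in female C57 and at 15.1, 18.9, 18.2, 18.2 and 18.4 in female KO, where 4 of 5 KO libraries lay above all of C57, and at 15.1, 15.6, 15.1, 13.8 and 14.4 and 17.9, 18.2, 17.3, 14.2 and 13.6 in male C57 and KO. Its difference was 0.27 in females (adjusted p = 0.057), 0.12 in males (adjusted p = 0.72) and 0.19 for the mean (adjusted p = 0.054). Timp3 lies within the span of Syn3 and Timp4 within that of Syn2, each on the opposite strand. Only gene spans were compared, and no strand setting is known. Whether reads of the host genes enter the values of Timp3 and Timp4 was not tested.

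Markers of cells that make fibrillar collagen stood mostly above 0 in KO against C57 in both sexes. Of 16 markers of meningeal fibroblasts, 13 were above 0 in females, 0 passed in limma and 5 stood at an unadjusted p under 0.05. Of these 5, Foxc1, Bgn, Igfbp2 and Ogn were above 0, and Pdgfra, which had the smallest p, was below 0 at -0.13 (adjusted p = 0.076). Their summed level was 43.3 to 64.5 FPKM in female C57, 46.3 to 86.0 in female KO, 40.8 to 52.8 in male C57 and 39.8 to 59.5 in male KO. Of 13 markers of pericytes and vascular smooth muscle, 12 were above 0 in females, 0 passed, 8 stood at an unadjusted p under 0.05, and their sum was 79.0 to 91.7 FPKM in female C57 and 81.3 to 139 in female KO. In male KO against male C57, all fibroblast markers but Tbx18 were above 0. So were all pericyte and smooth muscle markers but Des, Kcnj8 and Vtn. The smallest unadjusted p in limma there was 0.14 (Cemip) and 0.051 (Myl9). These directions are not set beside the share of all genes above 0, so they are not read as an excess. One marker, Crabp2, was at 0 in 1 library. The direction was not particular to these cells. At an unadjusted p under 0.05, 4 of 5 erythrocyte and 4 of 14 endothelial markers were above 0 in females. So were 2 of 2 pituitary and 1 of 9 ependymal markers, with 0 below in these lists. Of 13 hippocampal neuron markers 2 were above and 4 below, and of 10 microglia markers 1 and 2. Choroid plexus and astrocyte markers had 0 at that p, and all genes 19.5%. The part of any of these markers in the results above was not tested.

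Of other matrix genes, listed by pathway, few passed in females, near the share of all genes, which was 3.32%. Of 25 collagen-processing genes 0 passed in females (P3h4 at -0.16 in the mean effect, adjusted p = 0.17), and 0 of 11 basement membrane partners (Sparc at 0.15, adjusted p = 0.058), 0 of 8 small leucine-rich proteoglycans and 0 of 14 TGF-beta genes passed. The smallest p in the mean effect belonged to Fmod (fibromodulin, which binds collagen fibrils) at 0.40 (adjusted p = 0.21) among the proteoglycans, and to Tgfbr1 (a TGF-beta receptor) at -0.07 (adjusted p = 0.44) among the TGF-beta genes. Between female KO and female C57, these 4 lists held 4, 2, 3 and 1 genes at an unadjusted p under 0.05, against 19.5% of all genes. Htra1, a secreted serine protease, was 35.4 ± 1.58 FPKM in female C57 and 43.7 ± 2.80 in female KO, 0.29 higher (adjusted p = 0.0051), the one of 11 protease genes to pass. Nov, a matricellular protein of the CCN family, rose by 0.30 in females (adjusted p = 0.017, 1 of 28), and Itga7, a laminin-binding integrin, fell by 0.29 (adjusted p = 0.035, 1 of 16). Without the high-Ttr libraries Htra1 differed by 0.34 (adjusted p = 0.010), Nov by 0.26 (adjusted p = 0.16) and Itga7 by -0.17 (adjusted p = 0.31). Without the high-Prl libraries they differed by 0.30, 0.26 and -0.32 (adjusted p = 0.084, 0.27 and 0.25), and without both by 0.33, 0.21 and -0.15 (adjusted p = 0.30, 0.73 and 0.81). In males 0 genes of these 7 lists passed, against 0.0455% of all genes.

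Between male KO and female KO, 9 of the 53 genes (17.0%) passed, 1 higher and 8 lower in males, against 5.38% of all genes (2.25% higher and 3.13% lower). The 8 lower were Col1a1, Serpinh1, Timp4, Mmp17, Lamb2, Mgp, Mmp15 and Col1a2, and the higher was Mmp16. Between male C57 and female C57, 0 of 53 passed, 0.129% of all genes did, and 6 of the 53 stood at an unadjusted p under 0.05, against 10.3% of all genes. These comparisons use the same libraries as the KO comparisons above.

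In Mmp16 female KO was at 3.52, 2.65, 2.40, 2.73 and 2.75 FPKM and male KO at 4.16, 3.44, 3.86, 3.75 and 3.47. One female library overlapped the males, and the difference was 0.32 (adjusted p = 0.022). Timp4, an inhibitor of metalloproteinases, was at 4.67, 4.91, 4.83, 4.91 and 5.16 FPKM in female KO and at 3.76, 4.40, 3.79, 4.19 and 3.54 in male KO. In C57 it was at 4.42, 4.33, 4.63, 4.26 and 5.53 in females and at 4.29, 4.07, 4.35, 4.43 and 4.79 in males. The KO groups did not overlap, and Timp4 was 0.26 lower in males (adjusted p = 0.022). For this and later genes, the share of all genes whose KO groups do not overlap between the sexes was not computed. Mgp was at 9.04, 22.2, 13.4, 21.2 and 13.3 FPKM in female KO and at 11.0, 10.2, 8.89, 5.95 and 9.04 in male KO, 0.70 lower (adjusted p = 0.035). In C57 Mgp was at 8.73, 12.6, 10.6, 11.1 and 11.1 in females and at 8.85, 8.87, 7.14, 9.44 and 7.66 in males. Its female KO group was the widest of the 4, and without the high-Prl libraries the difference was -0.28 (adjusted p = 0.50).

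Mmp17 was at 24.9, 24.1, 24.5, 21.5 and 25.1 FPKM in female KO and at 19.8, 19.8, 21.1, 21.3 and 22.1 in male KO, 0.20 lower (adjusted p = 0.027). In C57 Mmp17 was at 22.5, 24.2, 23.5, 21.2 and 22.0 in females and at 19.7, 20.9, 21.0, 21.8 and 22.7 in males, and these groups overlapped. Mmp15, another membrane-type enzyme, was at 2.44, 2.10, 2.59, 2.55 and 3.15 in female KO and at 1.80, 1.99, 1.74, 2.18 and 1.97 in male KO, 0.28 lower (adjusted p = 0.037). In C57 Mmp15 was at 1.93, 2.58, 2.27, 1.98 and 2.26 in females and at 2.1, 1.87, 1.72, 2.1 and 2.29 in males, and these groups overlapped. Lamb2, a laminin beta chain of synapses and vessels, was at 3.28, 3.78, 3.53, 3.56 and 3.59 in female KO and at 2.96, 3.03, 3.14, 2.76 and 2.78 in male KO. Lamb2 was 0.21 lower (adjusted p = 0.034) with no overlap between groups, while Mmp17 and Mmp15 each overlapped. In C57 Lamb2 was at 2.9, 3.06, 3.3, 3.03 and 2.95 in females and at 2.58, 3.26, 3.47, 2.83 and 3.18 in males, with overlap. Without the high-Ttr libraries only Col8a2 passed (-0.30, adjusted p = 0.0498). The level rule was applied over all 20 libraries. Outside the high-Ttr set Col8a2 reached 0.5 FPKM in 3 libraries, with a median of 0.385 FPKM. It was tested there only through the libraries left out. With the high-Prl libraries left out, 0 of 53 passed. These settings compare fewer libraries, and the sizes moved differently between genes. Timp4 differed by -0.27, -0.26 and -0.24 without the Ttr set, the Prl set and both (adjusted p = 0.081, 0.21 and 0.62), and Mmp17 by -0.21, -0.25 and -0.23 (adjusted p = 0.062, 0.10 and 0.48), which is close to or larger than their values in all libraries. Lamb2 differed by -0.21, -0.17 and -0.13, and Mmp15 by -0.21, -0.37 and -0.24. Under the same 3 settings Col1a1 came to -0.43, -0.36 and -0.24 (against -0.52 in all libraries), Col1a2 to -0.36, -0.22 and -0.15 (against -0.40), Serpinh1 to -0.43, -0.42 and -0.13 (against -0.50), Mgp to -0.65, -0.28 and -0.07, and Mmp16 to 0.33, 0.20 and 0.09. With the GC trend removed 2 passed, Col1a1 and Timp4. Leaving out each of the 10 KO libraries in turn kept Col1a1 and Serpinh1 in 10 of 10, Mmp16 (lost without female KO 3 or male KO 1) and Timp4 (lost without female KO 5 or male KO 1) in 8, Mmp17 in 5, Mmp15 in 3, Lamb2 in 2, and Mgp and Col1a2 in 1.

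**Figure D4:**
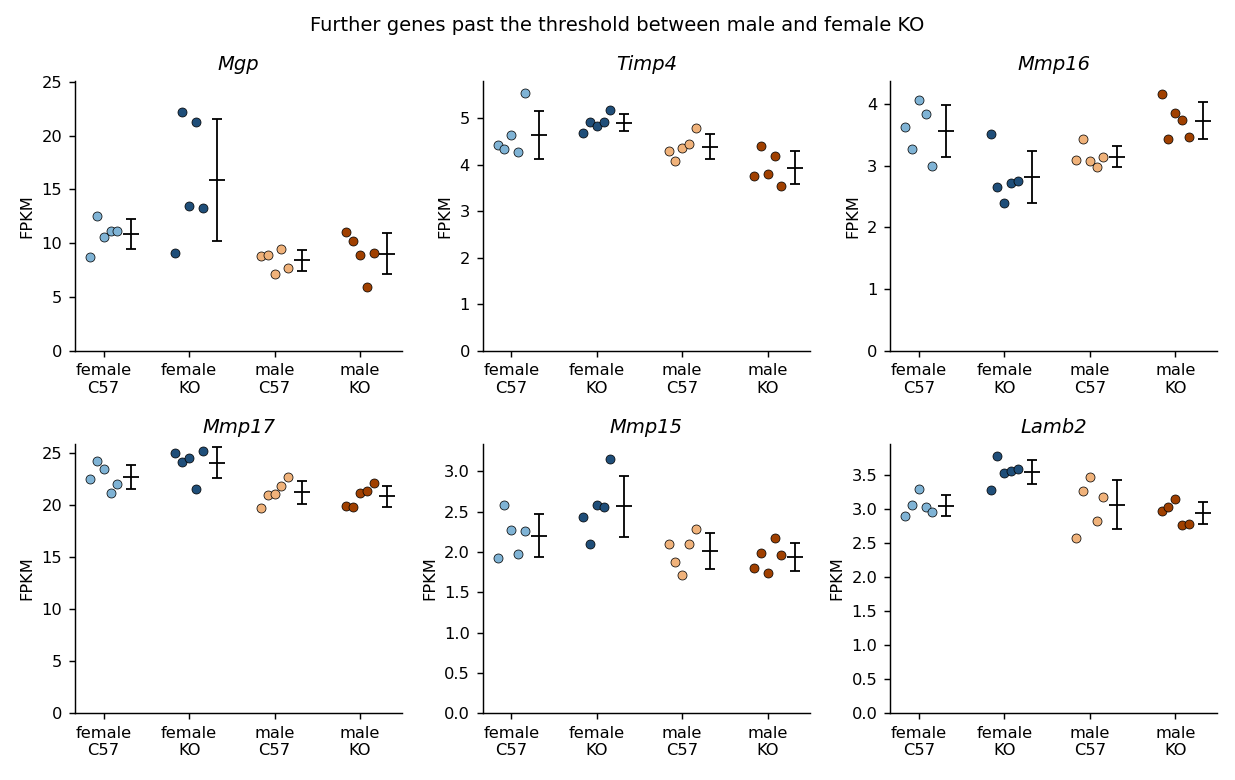
FPKM of 6 further genes that passed between male KO and female KO, in the 5 libraries of each group (points) with the mean and SD (bar). Mmp16 is higher in male KO and the other 5 are lower, and Mgp reaches 22.2 FPKM in 1 female KO library.

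All 21 collagen genes were below 0 in male C57 against female C57, where 6741 of 13174 genes were. Col6a1 differed most of those with an unadjusted p under 0.05, by -0.48 (adjusted p = 0.15), and Col1a1 by -0.34 (adjusted p = 0.19). The count was 21 of 21 with upper-quartile scaling, 20 of 21 with the GC trend removed and 17 of 21 without the libraries of high Ttr. None of the 21 passed. In male KO against male C57, 18 of 21 collagens were above 0, as were 6486 of 13174 genes, and 13 of 21 without those libraries. Both comparisons use the male C57 libraries, so these counts are not independent.

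Col8a1 and Col8a2 encode short-chain collagens that form hexagonal networks in vessel walls and membranes. The window of Col8a1 (GRCm38.p6, chr16:57754738-57754987, minus strand) is shown for its GC boxes, 4 in capitals on the reverse strand, as CCGCCC.
Col8a1: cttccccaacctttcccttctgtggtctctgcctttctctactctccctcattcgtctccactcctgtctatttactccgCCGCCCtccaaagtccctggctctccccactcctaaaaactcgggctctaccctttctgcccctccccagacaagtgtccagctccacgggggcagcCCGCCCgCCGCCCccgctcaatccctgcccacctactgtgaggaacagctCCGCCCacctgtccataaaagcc
In the 4 libraries of high Ttr, Col8a1 was at 1.0 to 3.83 FPKM and in the other 16 at 0.123 to 0.530. By group, Col8a1 was at 0.145, 0.478, 0.380, 1.58 and 0.311 in female C57, 0.294, 0.324, 0.300, 2.6 and 3.83 in female KO, 0.530, 0.173, 0.271, 0.230 and 0.237 in male C57 and 0.318, 1.0, 0.298, 0.170 and 0.123 in male KO. Col8a2 was at 1.03 to 2.51 against 0.272 to 0.772, Col9a3, a fibril-associated collagen, at 3.63 to 7.24 against 1.24 to 2.56, and Col4a5 at 0.731 to 0.790 against 0.399 to 0.709. These 4 genes lay above all other libraries in all 4, as did 64 of 13174 genes (0.486%). Col8a1 reached the level of 0.5 FPKM in 1 library beyond those 4 and Col8a2 in 3, where the rule asks for 5. Both are therefore among the 53 only through the libraries in which they are high. Their place among these 4 genes is thus not independent of the rule. The 13 choroid plexus markers summed to 37.6 to 1044 FPKM in female C57 and 66.7 to 1695 in female KO, with Aqp1, Slc4a5 and Kcnj13 at 0 in some libraries. By group, Col9a3 was at 2.0, 1.72, 2.28, 5.22 and 1.24 FPKM in female C57, 2.14, 1.9, 1.81, 4.8 and 7.24 in female KO, 2.56, 1.93, 1.63, 2.08 and 2.1 in male C57 and 1.92, 3.63, 1.89, 2.36 and 1.98 in male KO. Col1a1 was at 1.02 to 2.72 FPKM in those 4 libraries and at 0.518 to 2.24 in the others, so the 2 ranges overlapped.

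**Figure D5:**
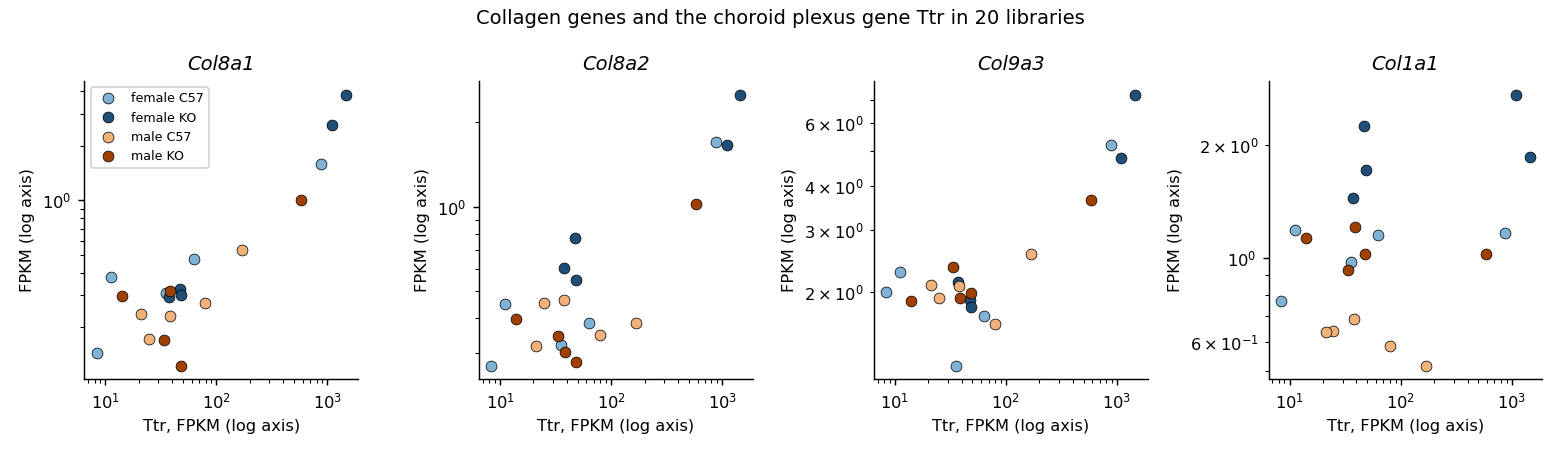
FPKM of 4 collagen genes against Ttr in each of the 20 libraries, on log axes, coloured by group. The 4 libraries above 500 FPKM of Ttr hold the 4 highest values of Col8a1, Col8a2 and Col9a3, and Col1a1 shows no such separation.

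Spread within groups also differed between genes. The coefficient of variation within groups ran from 5.36% to 91.5%, with a median of 15.5%, and the highest were Col8a1 at 91.5%, Col8a2 at 68.7% and Col9a3 at 49.2%. Col4a3bp stood at 42.5%, with libraries at 4.23 to 5.59 FPKM and at 9.40 to 12.2 in every group.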

How the data were processed

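RNA of 20 hippocampus libraries was read as FPKM per gene, which the authors deposited, per the file headers. Tools listed in the submitters' processing notes are FastQC, HISAT2 and StringTie, with mm10 as the build and no versions. The annotation release and strandedness were not given in the sources used here. Per the labels' protocols, RNA was extracted with TRIzol and libraries were made with a SMARTER mRNA-seq kit.

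Groups and replicate numbers came from the sample titles. Genes at 0.5 FPKM or more in at least 5 libraries were kept (13174 of 13256). In R 4.3.3, limma 3.58.1 fitted the log2 values (FPKM plus a pseudocount of 1, limma-trend) with 4 group means. P-values were adjusted by Benjamini-Hochberg over all tested genes, and a gene passed under 0.05. Fold changes on this scale understate the change of low genes. FPKM hold no counts, so no interval from counting was computed. The fit was tested on simulated data with independent normal noise per gene and library. These data held no choroid plexus or pituitary RNA and no GC trend, so that test does not cover such effects.

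The members and lists were chosen with earlier results of these data known. Values in every library are given for members past the threshold and the highest of each role (for Col4a3bp only its ranges). Also named are the 3 highest and the 2 with the smallest p in the mean KO effect of each role, the TIMP, laminin and type IV genes, and of each pathway list the genes past the threshold in the comparison described or, with none, that of smallest p in the mean KO effect. Genes without overlap between groups were added after their values were seen. Of marker lists mainly sums and counts are given. Promoter windows are from RefSeq (GRCm38.p6), and 36 of 53 members matched. GC content and overlapping genes come from GENCODE M21. Alternatives were upper-quartile scaling, a pseudocount of 0.1, no filter or a filter of 2 FPKM, fits of only the compared groups, the replicate block, removal of a loess trend on GC content, and leaving out single libraries, those with Ttr above 500 FPKM or those with Prl above 4 FPKM. Leaving out both of these sets, and these settings for the genes of the other lists, were added after seeing the data.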

Additional observations from a re-analysis of the deposited data

Results flagged for a closer look

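In groups of 5 libraries, 23 of 212 group values (10.8%) had 1 library whose gap to the nearest of the others exceeded 0.71 of the group range, and chance alone flags about 1 in 20 groups. Those that stood highest come first. Mmp14 was 2.13 FPKM in female C57 2, above a next library of 1.6. Adamtsl4 was 1.08 FPKM in male C57 3, above a next library of 0.866. Col4a3bp was 9.4 FPKM in female C57 2, above a next library of 5.33. Lamc1 was 5.13 FPKM in male C57 3, above a next library of 4.15. Col9a3 was 5.22 FPKM in female C57 4, above a next library of 2.28. Col9a3 was 3.63 FPKM in male KO 2, above a next library of 2.36. Col11a1 was 1.06 FPKM in female C57 4, above a next library of 0.697. Timp4 was 5.53 FPKM in female C57 5, above a next library of 4.63. Adamts6 was 0.895 FPKM in female C57 4, above a next library of 0.640. Col8a2 was 1.7 FPKM in female C57 4, above a next library of 0.448. Col8a2 was 1.03 FPKM in male KO 2, above a next library of 0.398. Col8a1 was 1.58 FPKM in female C57 4, above a next library of 0.478. Col8a1 was 0.530 FPKM in male C57 1, above a next library of 0.271. Col8a1 was 1.0 FPKM in male KO 2, above a next library of 0.318. Mmp2 was 0.657 FPKM in male C57 4, above a next library of 0.383.

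Those that stood lowest follow. Mmp14 was 1.5 FPKM in female KO 3, below a next library of 1.79. Lama5 was 0.483 FPKM in male KO 4, below a next library of 0.582. Timp3 was 15.1 FPKM in female KO 1, below a next library of 18.2. Mmp17 was 21.5 FPKM in female KO 4, below a next library of 24.1. Adamts8 was 0.749 FPKM in female C57 1, below a next library of 0.957. Adamts8 was 0.451 FPKM in male C57 1, below a next library of 0.844. Col16a1 was 0.610 FPKM in female C57 1, below a next library of 0.915. Col16a1 was 0.678 FPKM in female KO 3, below a next library of 0.803. Of the 23, 5 were in female C57 4 and 3 in male KO 2, which are libraries of high Ttr.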

How the results depend on the processing

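Of 1258 values over 57 pairs of a gene and a comparison, 1124 kept their direction and their side of the threshold, 102 lost the call, 30 gained it and 2 reversed. Without the Ttr and Prl libraries together, Mmp16 in females came to 0.015 (adjusted p = 0.99) and Mgp to -0.22 (adjusted p = 0.88); the cause was not tested, and this setting leaves 1 female KO library, which is assumed to vary like the other groups. Counts of genes that passed moved from 2 in the female KO comparison to 0 with only the compared groups fitted, 4 with the replicate block, 1 without the 4 high-Ttr libraries, 0 without the 3 high-Prl libraries and 0 without both. For the mean KO effect they moved from 4 to 2 with a filter of 2 FPKM, which drops Col1a1, Tnxb and Col11a1, and to 2, 1 and 0 without the Ttr libraries, the Prl libraries and both. Between male KO and female KO they moved from 9 to 2 with the GC trend removed and to 1, 0 and 0 without the same libraries. Leaving out each library in turn gave 2 to 6, 3 to 7 and 2 to 9 in these 3 comparisons, and 0 to 0 in the other 3, which had 0 under every setting run. The female calls of Col1a1 and Serpinh1 and the mean calls of Col1a1, Serpinh1 and Tnxb were kept in every one of these, while Col11a1 was lost without female KO 2, female KO 3, male C57 3, male C57 5 or male KO 3. Same-numbered KO and C57 libraries of a sex did not deviate together (correlations from -0.067 to 0.065). The numbers were not treated as a pairing, though this check cannot exclude one. With the replicate block 4 genes passed in females, 6 in the mean and 9 between male and female KO. Fold sizes of low genes depend on the pseudocount: with 0.1, Col1a1 differed by 0.85 in females and 0.78 in the mean. Depth is unknown, so the precision of single values could not be computed.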

Other observations

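Of the genes next to the matrix in the same lists, those that passed between male KO and female KO were P4ha1, a prolyl hydroxylase of collagen, at -0.28 (adjusted p = 0.030), Loxl1, a cross-linking oxidase, at -0.34 (adjusted p = 0.043), Prelp, a small leucine-rich proteoglycan, at -0.47 (adjusted p = 0.021), and Fbln2, a fibulin, at -0.23 (adjusted p = 0.048). All 4 were lower in males. Of all genes, 5.38% passed between male KO and female KO, 2.25% higher and 3.13% lower in males. The share of the lists that passed is not given here, so these 4 genes are not read as an excess over all genes. Without the high-Ttr libraries they came to -0.28, -0.32, -0.37 and -0.28 (adjusted p = 0.12, 0.13, 0.082 and 0.099), without the high-Prl libraries to -0.39, -0.48, -0.53 and -0.22 (adjusted p = 0.10, 0.13, 0.13 and 0.27), and without both to -0.37, -0.33, -0.34 and -0.23 (adjusted p = 0.50, 0.62, 0.54 and 0.67). Of 14 endothelial markers 8 were above 0 and 6 below in female KO against female C57, and 1 passed. That one, Slc2a1, the glucose transporter of brain endothelium, was 19.3 ± 2.19 FPKM in female C57 and 25.6 ± 3.99 in female KO (0.38, adjusted p = 0.043). It differed by 0.48 without the high-Ttr libraries (adjusted p = 0.027), 0.25 without the high-Prl libraries (adjusted p = 0.44) and 0.38 without both (adjusted p = 0.52). The adjusted p-values are limma's with Benjamini-Hochberg adjustment.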
